A study of Bos grunniens with 3 samples.

Results

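Cornification turns a living keratinocyte into a flattened, cross-linked dead cell, and it takes place both in the upper epidermis and in the inner root sheath (IRS), the layer that encases the growing hair. Suprabasin (*SBSN*) and keratinocyte differentiation-associated protein (*KRTDAP*) are small secreted proteins of differentiating epidermis, encoded beside each other with dermokine (*DMKN*) between them. Peptidylarginine deiminase 1 (*PADI1*) converts arginine to citrulline in keratins and filaggrin, and transglutaminase 3 (*TGM3*) cross-links proteins of the cornified envelope and the hair. These 4 genes, chosen by symbol, are described here in yak hair follicle cells. *SBSN* (ENSBGRG00000025300), *KRTDAP* (ENSBGRG00000015032) and *PADI1* (ENSBGRG00000002860) had a row among the 26924 genes counted, of which 15765 carried a symbol. *TGM3* had no row under its symbol in the gene list used here and was not analysed here. In the RefSeq gene order of the yak assembly Bosgru_T2T1.0, *KRTDAP*, *DMKN* and *SBSN* followed each other. *DMKN* also had no row under its symbol.

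The data were droplet single-cell RNA counts (unique molecular identifiers, UMIs, which count each captured RNA molecule once) from hair follicles pulled from scapular skin of healthy Tianzhu white yaks aged about 2 years. There were 3 libraries, 1 each for anagen (hair growth), catagen (regression) and telogen (rest). No treatment was given, and the labels do not tie a library to an animal. After a minimum of 200 genes per cell, 11987 anagen, 12062 catagen and 14502 telogen cells were kept, with median depths of 5256, 3350 and 5583.5 UMIs. Pairs of libraries shared between 40 and 49 cell barcodes. Since each stage had 1 library, stage, animal and library cannot be told apart, and no test between stages was possible.

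Cells were classed by their keratins. Keratins 1 and 10 fill suprabasal epidermal cells, and keratin 71 is an IRS keratin. Epidermal cells had at least 1% of their UMIs from *KRT1* and *KRT10* and less than 0.5% from *KRT71*. IRS cells had at least 0.5% from *KRT71* and less than 1% from *KRT1* and *KRT10*. The cut left 2630 anagen, 2321 catagen and 3556 telogen epidermal cells, and 164, 109 and 62 IRS cells. It set aside 3 cells per library that passed both limits. These classes are ranges rather than types. Of the 2633, 2324 and 3559 cells past the *KRT1* and *KRT10* limit, 297, 143 and 474 lay within 20% of it, and another 355, 150 and 605 cells lay as close below it. Of the 167, 112 and 65 cells past the *KRT71* limit, 25, 15 and 10 lay within 20% of it, with 41, 15 and 7 as close below it.

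In summed UMIs, the IRS and suprabasal keratins that the cut did not use followed the class names. *KRT25*, another IRS keratin, stood at 12474, 25860 and 17716 CPM (UMIs of the gene per 10⁶ UMIs of the class) in IRS cells of anagen, catagen and telogen, and at 54.4, 38.8 and 25.1 CPM in epidermal cells. *KRT77*, a suprabasal keratin, stood at 96.1, 370 and 28.4 CPM in epidermal cells and at 1.01, 0.80 and 0 CPM in IRS cells. The median epidermal cell held 0 CPM of *KRT77* in each library. The desmosomal cadherin *DSG1*, also among the suprabasal markers, stood at 832, 1588 and 1028 CPM in epidermal and 920, 1193 and 873 CPM in IRS cells, and so did not tell the classes apart. Nor did *DSC1*, another of these markers, at 173, 423 and 204 CPM in epidermal and 275, 411 and 162 CPM in IRS cells. The basal keratin *KRT14* was present in the epidermal class, at 4957, 5355 and 17137 CPM, highest in the telogen library.

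The 3 measured genes did not share a cell class. *KRTDAP* was higher in epidermal cells by a wide margin, *PADI1* was higher in IRS cells by a wider one, and *SBSN* was abundant in both and moderately higher in epidermal cells. All 3 passed the filter on low counts, and all 3 differed between the classes by the edgeR quasi-likelihood test on UMIs summed per class and library, with the library as a term and Benjamini-Hochberg adjustment over 9887 genes. Of those genes 33.6% were called in either direction, 19% as higher in epidermal cells and 14.5% as higher in IRS cells. Because a call was common in this comparison, the sizes of the differences carry more than the calls. The median absolute log2 difference over all genes was 0.64.

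*KRTDAP* stood at 9284 CPM in anagen, 5447 CPM in catagen and 9231 CPM in telogen epidermal cells. In IRS cells it stood at 670, 274 and 468 CPM. The lowest epidermal value lay far above the highest IRS value. The epidermal level was 13.8-fold higher in anagen, 19.9-fold in catagen and 19.7-fold in telogen. The fitted log2 difference was 4.01 ± 0.21 (SE, 3 libraries, edgeR adjusted p = 6.0e-06), and it was positive in 3 of 3 libraries.

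*PADI1* showed the opposite distribution. In IRS cells it stood at 295, 539 and 294 CPM, from 582, 676 and 426 UMIs. In epidermal cells it stood at 3.62, 1.10 and 2.18 CPM, from 76, 14 and 62 UMIs. The classes were far apart in each library, and the IRS level was 81.5-fold, 492-fold and 135-fold the epidermal level in anagen, catagen and telogen. The fitted log2 difference of epidermal over IRS cells was -7.40 ± 0.45 (SE, 3 libraries, edgeR adjusted p = 1.4e-05). Although IRS cells made up 1.37%, 0.904% and 0.428% of kept cells, they held 47.1%, 72.5% and 62.6% of each library's *PADI1* UMIs.

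*SBSN* stood at 6318, 4555 and 3260 CPM in epidermal cells of anagen, catagen and telogen. It stood at 2497, 2896 and 1103 CPM in IRS cells. Cells in neither keratin class held 1427, 1831 and 1332 CPM of *SBSN*, below the IRS level in anagen and catagen and above it in telogen. The epidermal value was above the IRS value in each library and the classes did not overlap across libraries, although the telogen epidermal level was only slightly above the catagen IRS level. Such separation, here and for *KRTDAP* and *PADI1*, was not counted over all genes tested, of which 33.6% were called. The folds were 2.53, 1.57 and 2.96. The fitted log2 difference was 1.07 ± 0.22 (SE, 3 libraries, edgeR adjusted p = 0.0056). This call was lost without the telogen library (log2 difference 0.83, adjusted p = 0.126) and with both keratin limits doubled (0.71, adjusted p = 0.059), and over all alternatives the value ran from 0.71 to 1.76. *SBSN* took no part in the cut. The study named its differentiated epidermal cells by *SBSN* together with *KRT1* and *KRT10*. It also counted *KRTDAP* among the marker genes of those cells. The direction of the *SBSN* and *KRTDAP* differences was therefore known beforehand.

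Over libraries, the mean ± SD (n = 3) in epidermal and IRS cells was 4711 ± 1535 and 2165 ± 941 CPM for *SBSN*, 7987 ± 2200 and 471 ± 198 CPM for *KRTDAP*, and 2.30 ± 1.27 and 376 ± 141 CPM for *PADI1*. The exact paired permutation test over 3 libraries gave a two-sided p of 0.25 for each gene, the smallest that 3 pairs allow.

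**Figure D1:**
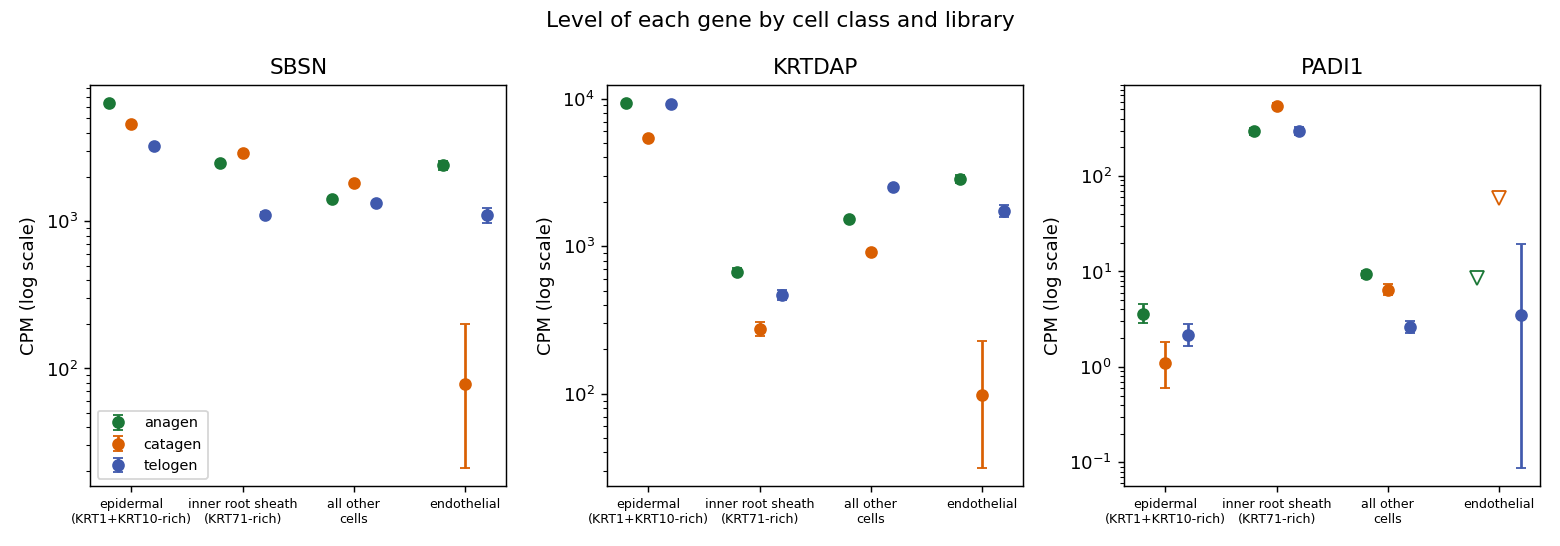
CPM of *SBSN*, *KRTDAP* and *PADI1* (log axis) in epidermal, IRS, endothelial and other cells of the anagen, catagen and telogen libraries, with 95% exact Poisson intervals that cover counting error only; open triangles mark the level that a count of 0 allows (3 counts). *KRTDAP* is highest in epidermal cells, from 5447 to 9284 CPM, *PADI1* in IRS cells, from 294 to 539 CPM, and *SBSN* is at 1103 CPM or more in both classes.

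Free RNA in droplets gives UMIs to cells that do not make them, so endothelial cells, which line blood vessels and should lack these genes, were used as a background. They were few, 56 in anagen, 15 in catagen and 35 in telogen. *PADI1* had no UMI in the anagen and catagen endothelial cells and 1 UMI in telogen. IRS cells were at least 34.8-fold higher in anagen and at least 9.23-fold higher in catagen, against a floor of 3 counts per library. The *PADI1* level of epidermal cells was not set apart from background, since the endothelial cells were too few. Their counting intervals reached up to 10.4, 71.8 and 19.4 CPM in anagen, catagen and telogen, above the epidermal values. The "other" cells, in neither keratin class, held 9.36, 6.46 and 2.60 CPM. They are no background for *PADI1*, since they include cells just below the *KRT71* limit. Those from 0.2 to 0.5% *KRT71* held 96.1, 140 and 59.7 CPM.

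*KRTDAP* in IRS cells was within reach of the background. Endothelial cells held 2875, 97.4 and 1735 CPM of *KRTDAP*, above the IRS level in anagen and telogen and below it in catagen. In anagen 719 of 1016 of these UMIs lay in 1 cell, and the median endothelial cell held 310, 0 and 446 CPM. In catagen the IRS level was 2.82-fold the endothelial one (log2 ratio 1.49, counting interval 0.26 to 3.13), on 5 endothelial UMIs. Taken over the 3 libraries, the IRS level of *KRTDAP* is therefore reported as not distinguishable from background.

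For *SBSN* the summed endothelial levels were 2396, 77.9 and 1098 CPM, next to the IRS levels in anagen and telogen. In anagen 643 of 847 of these UMIs lay in 1 cell, and the median endothelial cell held 79.1, 0 and 0 CPM. Restricting to endothelial cells past no keratin limit, an alternative chosen after seeing the data, gave 2478, 77.9 and 872 CPM. The share of cells with a UMI separated the classes more clearly.

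After thinning each cell to 1500 UMIs, *SBSN* was seen in 84.1% of 164 anagen IRS cells (exact Clopper-Pearson 95% interval 77.6 to 89.4%) against 35.7% of 56 endothelial cells (23.4 to 49.6%). In catagen the shares were 78.6% and 14.3%, and in telogen 63.0% and 21.2%. Epidermal cells stood at 82.1%, 74.0% and 75.9%. By this measure IRS and epidermal cells were close to each other in anagen and catagen and both were above endothelial cells. Without thinning, the epidermal shares were 94.4%, 86.3% and 87.8% and the IRS shares 97.6%, 89.0% and 91.9%. Median depths differed, at 6953.5, 4966 and 6845 UMIs in epidermal and 4557, 8780 and 16372.5 UMIs in IRS cells. Thinning left out 0, 412 and 699 epidermal cells and 0, 11 and 8 IRS cells.

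*KRTDAP* was seen in 98.6%, 91.4% and 99.0% of thinned epidermal cells, nearly all of them. In IRS cells the share was 61.6%, 34.7% and 31.5%, and in endothelial cells 51.8%, 21.4% and 45.5%, so that the IRS share was not set apart from background. *PADI1* was seen in 27.4%, 33.7% and 24.1% of thinned IRS cells and in 0.570%, 0.210% and 0.245% of epidermal cells. In endothelial cells it was seen in 0 of 56 anagen cells, which allows a share of up to 5.36%, in 0 of 14 catagen cells, which allows up to 21.4%, and in 3.03% of telogen cells. Unthinned, the *PADI1* shares were 62.2%, 56.0% and 62.9% in IRS cells and 1.98%, 0.603% and 0.647% in epidermal cells. Unthinned *KRTDAP* shares were 99.9%, 94.4% and 99.4% in epidermal and 90.2%, 71.6% and 93.5% in IRS cells.

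The proportion of summed *SBSN* to *KRTDAP* UMIs differed between the classes in each library, as follows from the class differences above. Epidermal cells held 0.681, 0.836 and 0.353 *SBSN* UMIs per *KRTDAP* UMI in anagen, catagen and telogen. IRS cells held 3.72, 10.6 and 2.35. Since the IRS level of *KRTDAP* was not distinguishable from background, these IRS values describe summed UMIs and not what IRS cells make. Endothelial cells held 0.834, 0.80 and 0.633, and lay nearer to the epidermal than to the IRS values. In anagen 643 of 847 endothelial *SBSN* UMIs and 719 of 1016 *KRTDAP* UMIs lay in the highest cell for that gene. The catagen value rested on 4 and 5 UMIs, so the background proportion is not settled. Cells in neither keratin class held 0.929, 2.01 and 0.525, in catagen above the epidermal and below the IRS value. The counting intervals of IRS and endothelial cells did not overlap in any library, the widest being that of catagen endothelial cells (0.159 to 3.72) beside 9.45 to 11.8 in catagen IRS cells. In the 45, 33 and 13 IRS cells with a *PADI1* UMI after thinning, *SBSN* was also seen in 91.1%, 93.9% and 69.2%, against 81.5%, 70.8% and 61.0% of IRS cells without one.

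The levels also varied along the keratin share inside each class. With 0.5 to 1, 1 to 2, 2 to 4 and at least 4% of UMIs from *KRT71*, *SBSN* stood at 1342, 1917, 4027 and 5859 CPM in anagen and at 1330, 2182, 4055 and 4458 CPM in catagen. In telogen it stood at 548, 982, 1258 and 2258 CPM. Inside the IRS class *SBSN* was thus higher in cells richer in *KRT71* in each library. Depth also differed over these bins. Median depth ran from 3823 to 21536 UMIs in anagen, from 7574 to 14793.5 in catagen and from 12820 to 27670 in telogen. The last bin held 9, 10 and 6 cells and the telogen bin before it 13, and without these bins the order was the same. Cells at 0.2 to 0.5% *KRT71*, just outside the class, held 644, 474 and 698 CPM of *SBSN*, below the first bin of the class in anagen and catagen and above it in telogen. Cells under 0.05% *KRT71*, outside the epidermal class, held 1510, 1900 and 1352 CPM, above that first bin in each library. *SBSN* therefore did not rise steadily with *KRT71* over all these cells.

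*PADI1* over the same 4 bins stood at 260, 206, 326 and 690 CPM in anagen, at 220, 665, 622 and 897 CPM in catagen and at 130, 293, 251 and 753 CPM in telogen. Below the IRS limit it stood at 4.17, 2.58 and 1.47 CPM under 0.05% *KRT71*, at 40.7, 40.2 and 32.3 CPM from 0.05 to 0.2%, and at 96.1, 140 and 59.7 CPM from 0.2 to 0.5%. *PADI1* was thus higher with each bin up to the limit, with no single step at it, and inside the class neighbouring bins were not in strict order. The course of *KRTDAP* inside the IRS class is not read, since its level there was not distinguishable from background.

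Along the *KRT1* and *KRT10* share, from 1 to 2, 2 to 4 and at least 4%, *KRTDAP* stood at 7308, 9992 and 11315 CPM in anagen. The catagen values were 4032, 5384 and 6457 CPM and the telogen values 7158, 9379 and 11468 CPM. *KRTDAP* was higher in each richer bin of each library. *SBSN* went from 4883 through 6181 to 9245 CPM in anagen, but from 4614 through 4167 to 4972 CPM in catagen and from 3041 through 3270 to 3503 CPM in telogen, a much flatter course. The points along either keratin share come from the same libraries, differ in depth and were not tested.

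**Figure D2:**
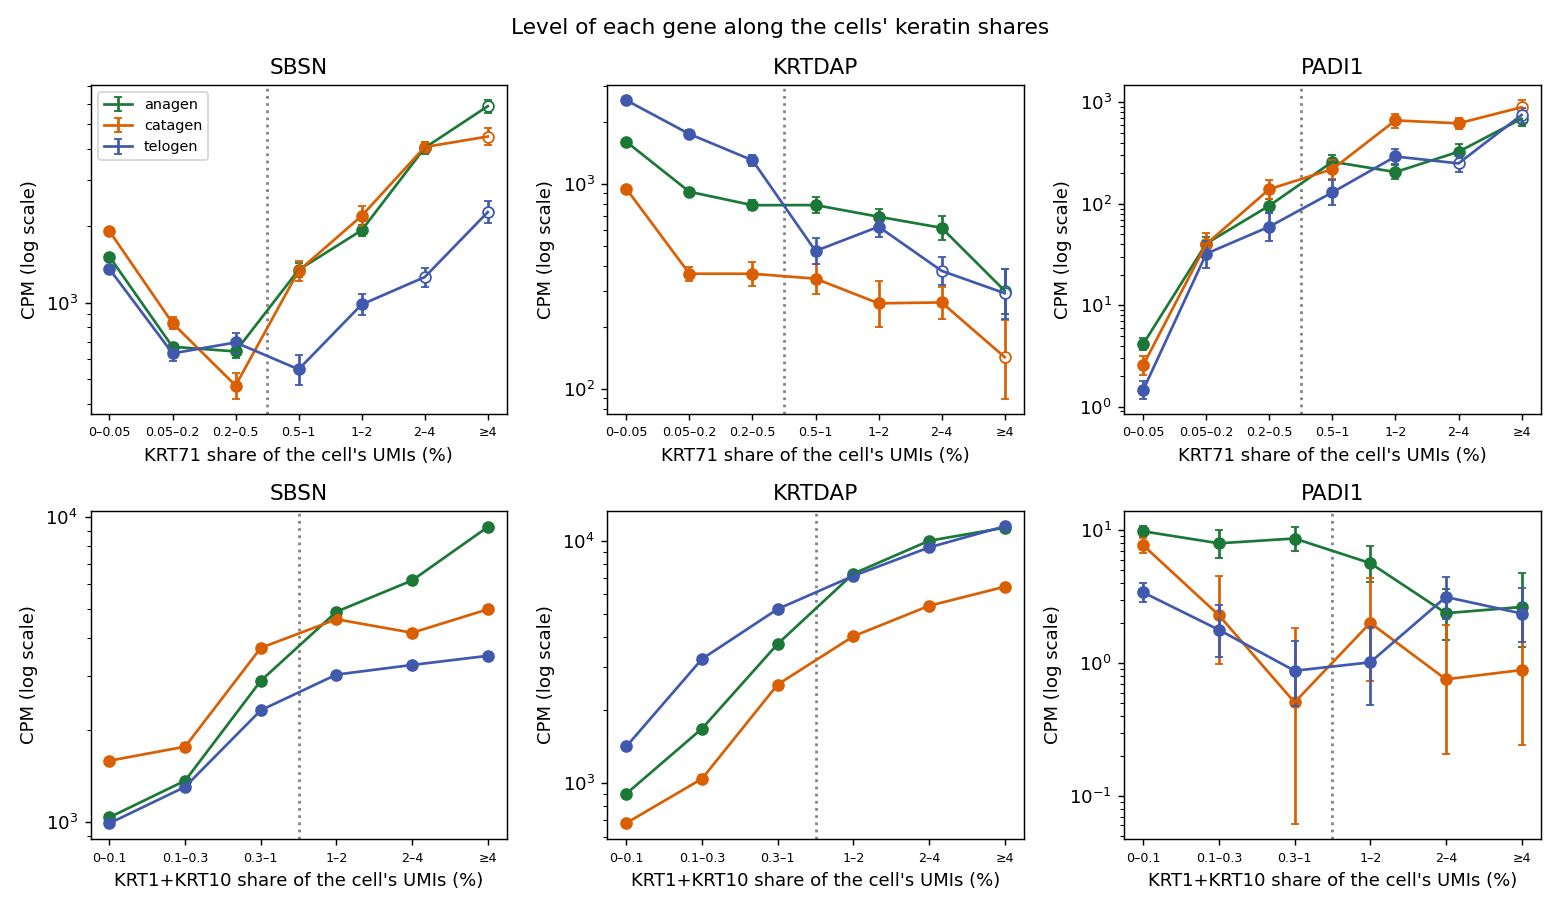
CPM of *SBSN*, *KRTDAP* and *PADI1* (log axis) by the share of a cell's UMIs from *KRT71* (top row) and from *KRT1* and *KRT10* (bottom row), 1 line per library; open circles are bins under 20 cells, the dotted line is the class limit, and cells past the limit of the other keratin are left out. *SBSN* in anagen goes from 1342 to 5859 CPM over the 4 IRS bins, and *KRTDAP* in anagen from 7308 to 11315 CPM over the 3 epidermal bins.

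Clusters of each library, made without the members among the variable genes, gave 25, 20 and 18 groups in anagen, catagen and telogen. Groups were called X-like where fixed markers allowed it. *SBSN* was highest in anagen in the granular and KLK-SPINK9-like cluster led by *SPINK7*, *LYPD2* and *KLK5*, at 19285 CPM in 358 cells. In telogen it was highest in a cluster of the same name led by *KRT23*, *KLK5* and *CNFN*, at 8358 CPM in 751 cells. In catagen the highest cluster was suprabasal-like and led by *KRT77*, at 11012 CPM in 186 cells. *SBSN* was low in the basal and outer root sheath-like clusters, at 497, 172 and 103 CPM, and in the S phase-like clusters, at 133, 71.2 and 262 CPM. The suprabasal-like clusters held 4958, 3305 and 1875 CPM and the IRS-like clusters 1309, 1777 and 474 CPM. The telogen IRS-like cluster of 555 cells also had the hair cortex keratins *KRT85* and *KRT35* among its 10 leading genes. Of its cells 53 were in the IRS class, and no telogen cluster was named hair cortex and cuticle-like. Its values are therefore not directly comparable with those of the anagen and catagen IRS-like clusters.

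One catagen cluster broke the pairing of *SBSN* and *KRTDAP*. This unnamed cluster of 426 cells, led by *FGF18*, *PMP22* and *CST3*, held 10001 CPM of *SBSN* and 196 CPM of *KRTDAP*, or 50.9 *SBSN* UMIs per *KRTDAP* UMI. Its *PADI1* level was 0.80 CPM. Lower but still raised proportions stood in bulge and hair germ-like clusters led by *PTHLH*, at 4.91 in anagen and 5.99 in catagen, and in granular and KLK-SPINK9-like clusters led by *KRT75*, a companion layer keratin, at 4.31 and 4.42. No telogen cluster was led by either gene. The telogen bulge and hair germ-like cluster with *PTHLH* among its 10 leading genes held 0.246, not raised. The telogen granular and KLK-SPINK9-like cluster with *KRT75* among its leading genes held 1.59. These clusters were singled out after their values were seen.

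*KRTDAP* stood at 10603, 5413 and 10222 CPM in the suprabasal-like clusters. In the granular and KLK-SPINK9-like clusters it stood at 9819, 1335 and 11335 CPM. The low catagen value came from 1 cluster, led by the companion layer keratin *KRT75*, with 429 CPM of *KRT1* and *KRT10*. The anagen cluster led by *SPINK7* held 27620 CPM of these 2 keratins. These values are therefore not directly comparable between libraries. The unnamed catagen cluster led by *KRT79*, *KRT23* and *CA6* held 5536 CPM of *KRTDAP*. It was 846, 305 and 616 CPM in the IRS-like clusters. The epidermal and IRS levels kept the order that the keratin cut gave.

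*PADI1* was highest in the IRS-like cluster of each library, at 173, 355 and 71.9 CPM. These clusters held 70.7%, 86.2% and 88.8% of the library's *PADI1* UMIs, the telogen one with cortex keratins among its leading genes. Next among the named groups was the anagen sebaceous-like cluster, at 47.0 CPM from 44 UMIs, where *KRT71* also stood at 273 CPM. The telogen sebaceous-like cluster of 42 cells had no *PADI1* UMI. Hair cortex and cuticle-like clusters followed, at 13.5 CPM in anagen and 31.7 CPM in catagen, and suprabasal-like clusters held 1.81, 1.15 and 1.08 CPM.

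**Figure D3:**
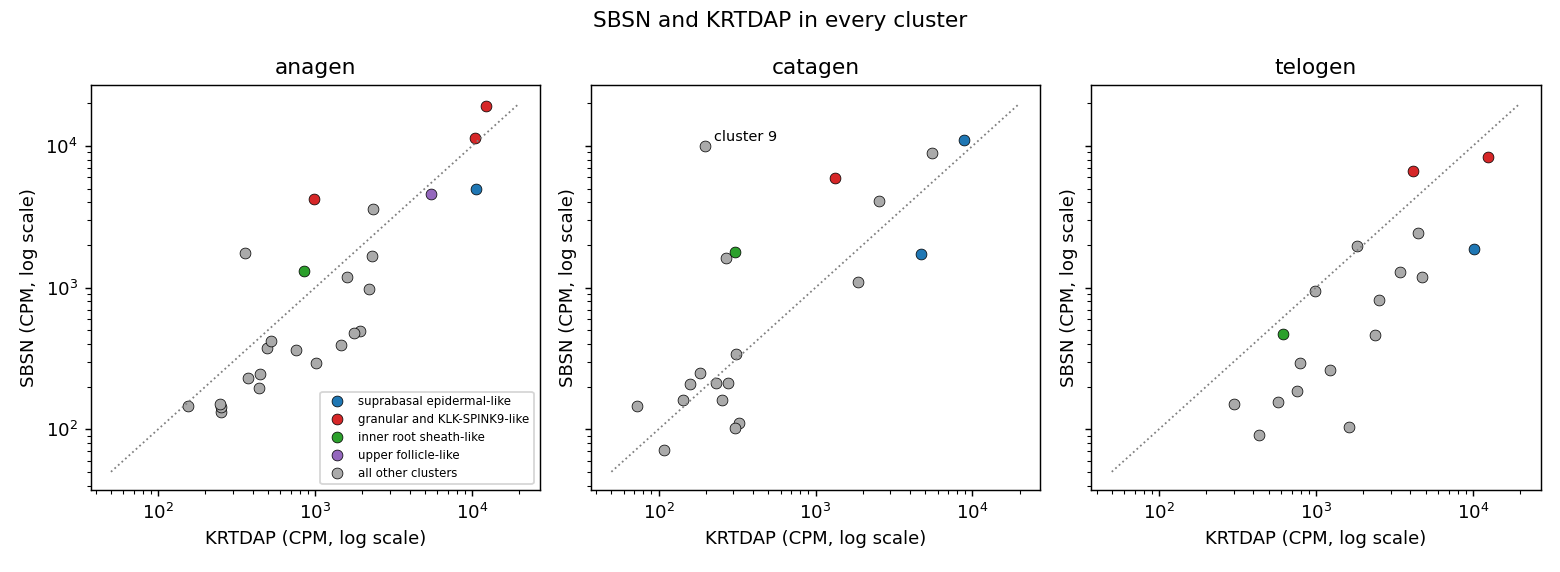
*SBSN* against *KRTDAP* in CPM (both axes log) for the 25 anagen, 20 catagen and 18 telogen clusters, coloured by the name the markers gave, with the dotted line where both are equal. Most clusters lie near a common band, and the labelled catagen cluster 9 stands apart at 10001 CPM of *SBSN* and 196 CPM of *KRTDAP*.

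The genes most like each member over the clusters were taken by mean Pearson r of log2(CPM + 1) over the 3 libraries, among 2493 genes. This is a description only, since clusters share a library and its free RNA and differ in depth. *SPINK5*, a serine protease inhibitor of the outer epidermis, was most like *SBSN* (mean r 0.945), followed by *LY6G6C* (0.86), *SULT2B1* (0.84), *GDPD3* (0.838) and *ABCA12* (0.83), a lipid transporter of lamellar granules. *PDZK1IP1* (0.844), *AREG* (0.841), *KRT1* (0.825), *LYPD5* (0.814) and *C5orf46* (0.803) were most like *KRTDAP*. *KRT25* (0.836), *KRT71* (0.819), *KRT27* (0.813), *PMP2* (0.78) and *KRT28* (0.779), among them 4 IRS keratins, were most like *PADI1*. Between the members, mean r was 0.80 for *SBSN* and *KRTDAP*, 0.03 for *SBSN* and *PADI1*, and -0.15 for *KRTDAP* and *PADI1*.

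Between stages the levels are given as values from 1 library each, with intervals that cover counting error only. In epidermal cells the log2 ratio of *SBSN* was -0.47 for catagen over anagen (-0.49 to -0.46) and -0.95 for telogen over anagen (-0.97 to -0.94). *KRTDAP* was -0.77 for catagen over anagen (-0.78 to -0.76) and -0.01 for telogen over anagen, with an interval that included 0. *SBSN* was therefore highest in the anagen library and lowest in telogen, while *KRTDAP* was lowest in catagen and close together in the other two.

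The clusters behind the epidermal class differed between libraries. In anagen 52.1% of its cells were in the suprabasal-like cluster and 15.4% in the upper follicle-like one. In catagen 65.8% and 7.97% were in 2 suprabasal-like clusters and 18.5% in an unnamed cluster led by *KRT79*, *KRT23* and *CA6*. In telogen 46.9% were in the suprabasal-like cluster, 20.6% in an unnamed cluster led by *KRT17*, and 17.7% in an unnamed shallow one. Many granular and KLK-SPINK9-like cells lay outside the epidermal class. In anagen it took in 257 of 358, 31 of 263 and 5 of 90 cells of such clusters. In catagen it took in 3 of 223, and in telogen 331 of 751 and 4 of 93. The clusters of 90, 223 and 93 cells had *KRT75*, a companion layer keratin, among their leading genes. The part of this make-up in the stage ratios and in the class differences was not tested.

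In IRS cells *SBSN* had a log2 ratio of 0.21 for catagen over anagen (0.15 to 0.28) and -1.18 for telogen over anagen (-1.26 to -1.10). *PADI1* was 0.87 for catagen over anagen (0.71 to 1.03) and -0.01 for telogen over anagen (-0.19 to 0.18). By these sums both genes were highest in the catagen library. As a mean over cells, *SBSN* was higher in anagen IRS cells, at 2440 CPM, than in catagen ones, at 2190 CPM. The IRS-like cluster held 93.3%, 99.1% and 85.5% of these cells, and 12.9% of the telogen ones, 8 cells, lay in the shallow unnamed cluster. The *KRTDAP* ratios in IRS cells are not read, since its level there was not distinguishable from background.

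Other genes of cornification were taken from lists of 86 genes, of which 56 had a row under their symbol and 50 passed the filter on low counts. Of these 18 (36%) were higher in epidermal cells, against 19% of all genes, and 10 (20%) were higher in IRS cells, against 14.5% of all genes. The other 22 were not called. Some genes, such as *CASP14*, *ALOX12B* and *TGM7*, could pass the filter only through the class where they were high. Their direction was thus fixed once they were tested. Such genes were not counted apart, either here or among all genes. The lists were chosen with earlier results of these data known, so the shares are a description only. Epidermal here means the keratin class, which left out many granular and KLK-SPINK9-like cells. The median log2 difference of the 50 genes was 0.04, against 0.08 for all genes. The named genes were, per list, up to 2 called genes with the largest fold in each direction.

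The transglutaminases, which cross-link envelope proteins, were divided, with 1 of 3 tested genes higher in epidermal and 2 higher in IRS cells (median log2 difference -2.93). *TGM5* stood at 14.9, 7.82 and 9.91 CPM in epidermal and 1.52, 0 and 0.69 CPM in IRS cells (log2 difference 3.64 ± 0.52 SE, edgeR adjusted p = 0.00092). *TGM1* stood at 9.53, 13.3 and 7.94 CPM in epidermal and 85.7, 82.9 and 48.3 CPM in IRS cells (-2.93 ± 0.21 SE, edgeR adjusted p = 2.4e-05). *TGM7* had 2 UMIs in epidermal and 153 in IRS cells. In CPM the ratio of IRS over epidermal cells was 1018 (counting interval 277 to 8482). Neither class overlapped the other across libraries for any of the 3. Such separation was not counted over all genes tested, so it is not read as particular to these genes. Of the other deiminases, 1 of 4 had a row and none passed the filter.

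Of 21 envelope precursors and filament-binding proteins 3 had a row, and 2 were higher in epidermal cells. *CNFN*, cornifelin of the cornified envelope, stood at 24.2, 40.8 and 53.8 CPM in epidermal and 0.507, 3.19 and 0 CPM in IRS cells (log2 difference 5.0). *EVPL*, envoplakin, differed less (0.67), and its IRS values overlapped the epidermal ones. Of 9 genes tested from the list of corneodesmosome and other desmosome genes, 2 were higher in epidermal cells. These were the desmosomal cadherins *DSG3* (2.90) and *DSC2* (1.07). In IRS cells 1 was higher, *CDSN*, corneodesmosin (-2.77). The other 6, among them *DSG1* (0.05) and *DSC1* (-0.23), were not called and the list's median was 0.05.

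Of 12 proteases and inhibitors 5 were higher in epidermal cells, 3 in IRS cells and 4 were not called (median -0.08). *CASP14*, a protease that processes filaggrin, was at 0 in IRS cells and at least 3.56-fold higher in epidermal cells, against a floor of 3 counts over the group. *SPINK9*, a kallikrein inhibitor, had 2489 UMIs in epidermal and 3 in IRS cells. In CPM the ratio of epidermal over IRS cells was 62.3 (counting interval 21.3 to 303). The kallikreins *KLK14* (-4.70) and *KLK10* (-2.18) were higher in IRS cells than in the epidermal class. That class held only 31 of 263 cells of the anagen cluster with *KLK7*, *KLK10* and *SPINK9* among its leading genes. *SPINK5*, the gene most like *SBSN* over clusters, stood at 1662, 3151 and 1337 CPM in epidermal and 806, 937 and 496 CPM in IRS cells (1.29).

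Of 11 barrier lipid genes 5 were higher in epidermal cells, 0 in IRS cells, and 6 were not called (median 0.49). *ALOX12B*, a lipoxygenase of the skin barrier, was at 0 in IRS cells and at least 11.5-fold higher in epidermal cells. *SMPD1*, acid sphingomyelinase, differed by 2.50. Of 12 transcription factors 3 were higher in epidermal and 4 in IRS cells. *TP63*, the regulator of stratified epithelium, was higher in epidermal cells (1.98), as was *PRDM1* (1.27). *DLX3*, a homeobox factor of hair differentiation, stood at 568, 560 and 558 CPM in IRS and 79.8, 31.0 and 38.7 CPM in epidermal cells (-3.74), and *FOXN1* was also higher in IRS cells (-2.20).

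**Figure D4:**
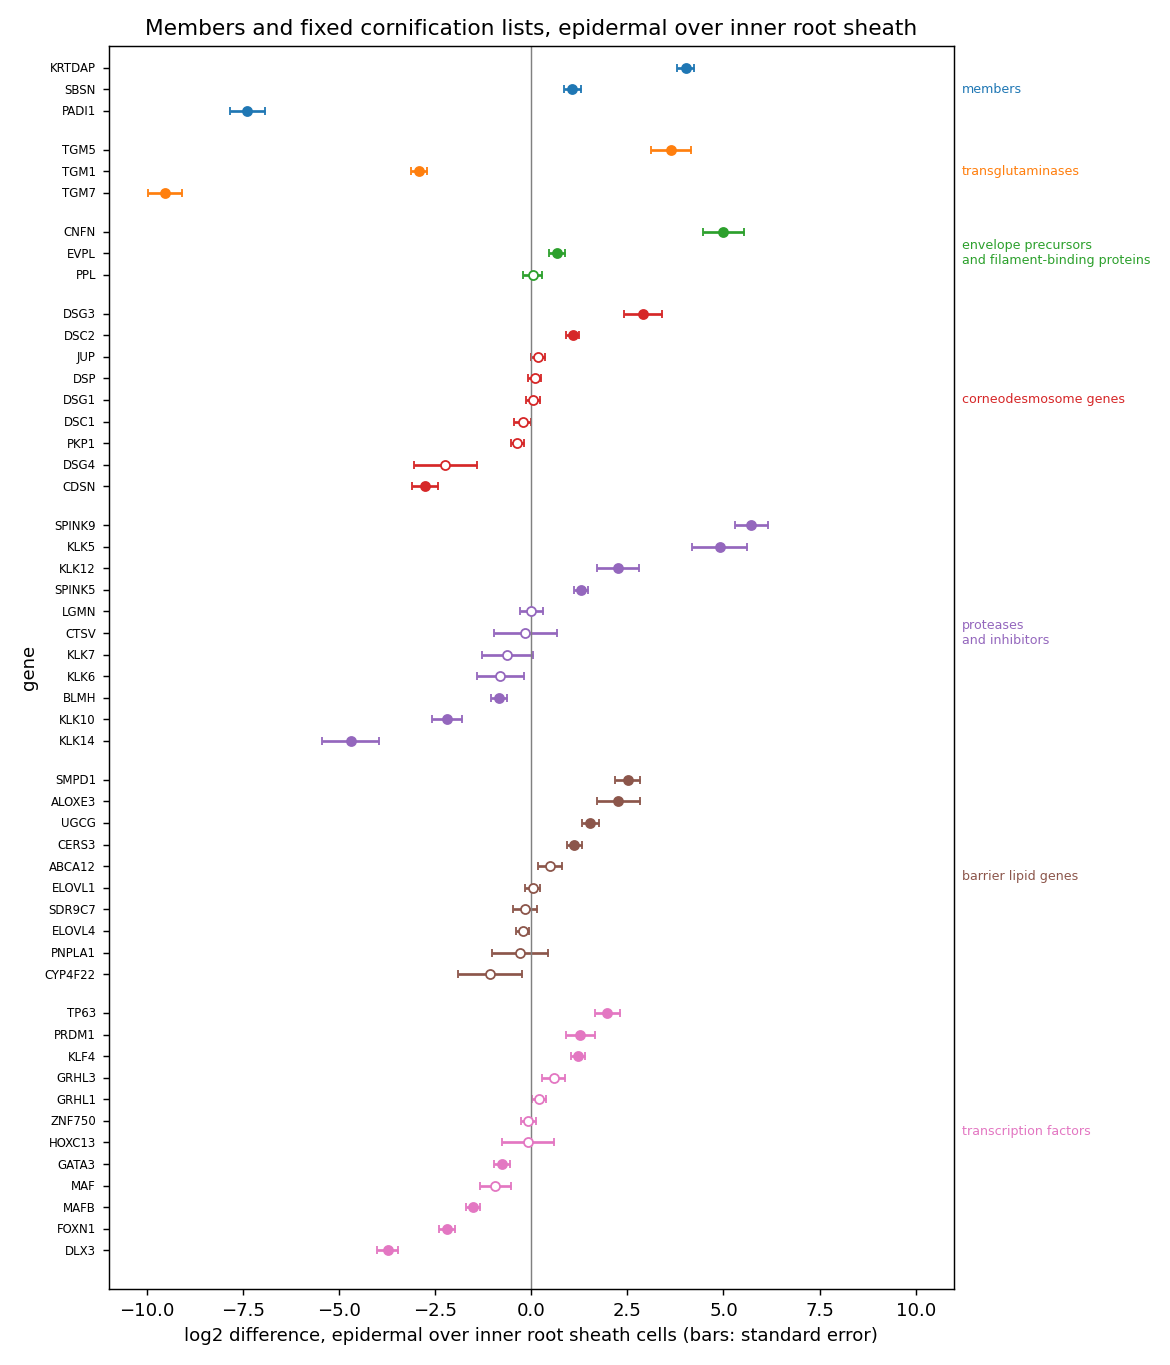
Log2 difference of epidermal over IRS cells ± SE (edgeR, 3 libraries) for the 3 members and the cornification genes by list; filled points have an adjusted p under 0.05, and *CASP14* and *ALOX12B*, at 0 in IRS cells, are left out. *KRTDAP* (4.01) and *PADI1* (-7.40) lie near the opposite ends, and *SBSN* (1.07) lies between them.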

How the data were processed

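Single hair follicles were dissociated and sequenced on the 10x Genomics platform. The deposited matrices hold raw UMI counts per gene and cell, which the authors made with Cell Ranger. The file headers name versions 4.0.0 (anagen), 3.1.0 (catagen) and 6.0.2 (telogen), and the submitters' processing notes name version 2.1.1. The build was not given in the sources used here. Samples were grouped by their labelled stage, and the catagen protocol text names anagen.

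Cells with at least 200 genes were kept and doublets were left in. The members and lists were chosen with earlier results of these data known. Classes were cut from keratin UMIs, summed per library and tested with edgeR 4.0.16 (quasi-likelihood, TMM, filterByExpr, adjusted p threshold 0.05) in R 4.3.3, with DESeq2 1.42.0 as an alternative. The test was tried on simulated counts. Its p-values measure how the class difference varied over 3 libraries, which are also 3 stages, with dispersions moderated over all genes tested. The SE was taken as the absolute log2 difference over the square root of the test's F statistic. Intervals and floors cover counting error only. Clusters came from Seurat 5.3.0 (2000 variable genes without the members, 30 components, 20 neighbours, resolution 0.8). They were named where at least 3 markers were 2-fold raised and 1 was among the 10 leading genes, limits set after clusters were seen, from 79 markers of which 66 had a row. Named genes were the members, up to 2 called genes per list and direction with the largest fold, and 5 genes most like each member. Python 3.11.15, numpy 2.4.6, pandas 2.3.3 and scipy 1.17.1 were used.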

Additional observations from a re-analysis of the deposited data

Results flagged for a closer look

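Epidermal and IRS cells went opposite ways between stages in 3 comparisons of summed UMIs, none of which was tested, since each stage had 1 library. The log2 ratio of *SBSN* for catagen over anagen was -0.47 in epidermal and 0.21 in IRS cells. That of *PADI1* for catagen over anagen was -1.73 in epidermal and 0.87 in IRS cells, and for telogen over catagen 0.99 in epidermal and -0.87 in IRS cells. The epidermal *PADI1* ratios rest on 76 anagen, 14 catagen and 62 telogen UMIs, a level not set apart from background. As a mean over cells, *SBSN* in IRS cells was 2440 CPM in anagen and 2190 CPM in catagen, lower as in epidermal cells. Epidermal *PADI1* was 2.605 CPM in catagen and 2.17 CPM in telogen by that measure, lower as in IRS cells. These contrasts thus depended on how cells were combined, while that of *PADI1* for catagen over anagen kept its directions.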

How the results depend on the processing

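*KRTDAP* and *PADI1* kept their direction and their call between classes under each alternative run, with log2 differences from 3.74 to 4.19 and from -7.96 to -6.78. Leaving out 1 library at a time gave 0.83 to 1.34 for *SBSN*, 3.88 to 4.19 for *KRTDAP* and -7.96 to -6.81 for *PADI1*, with 1209 to 1607 genes higher in epidermal and 970 to 1209 higher in IRS cells, the lowest epidermal count without the anagen library. *SBSN* lost its call without the telogen library (adjusted p = 0.126) and with both limits doubled (0.71). Without the 5% of cells with the most UMIs, 1193 genes were higher in epidermal and 708 in IRS cells, with fewer cells summed. The loss fell mostly on the IRS class, which went from 164, 109 and 62 to 113, 69 and 39 cells. The epidermal class went from 2630, 2321 and 3556 to 2471, 2124 and 3332 cells. The *SBSN* difference was then 1.62 (1.07 as reported). Scaling by library totals moved the median of all genes from 0.08 to 0.20, and *SBSN* stayed 0.99 above it under both. Between stages, *PADI1* in epidermal cells turned to 0.18 for telogen over anagen with both limits doubled (-0.73 as reported), and *KRTDAP* in IRS cells to 0.11 with both limits halved (-0.52 as reported). The cause was not tested. Of the other stage values 58 stayed within the counting interval and 30 moved outside it, and of the shares of cells 4 stayed and 32 moved. The classes were paired within libraries, with the library as a term in the test. Between stages no pairing existed, since each had 1 library.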
